A study of Mus musculus with 38 samples.

Results

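The mitochondrial genome carries 37 genes, and all 37 were present in each of the 4 deposited count tables. They were chosen by name alone, as every gene whose symbol begins with mt-, out of 57126 genes in the primary tumour and miRNA tables and 55487 in the culture and brain tables. They comprise 13 messenger RNAs, 2 ribosomal RNAs and 22 transfer RNAs. The study concerns triple-negative breast cancer and exosomes, the small vesicles that cells release, shed by adipocytes. Every one of the 38 libraries, in 10 groups, is labelled as 4T1, a mouse mammary adenocarcinoma line. The in vitro experiment has 3 untreated libraries, 3 treated for 72 h with exosomes from insulin sensitive 3T3-L1 adipocytes (IS) and 3 treated for 72 h with exosomes from insulin resistant ones (IR). The brain clonogenic assay, which grows colonies from cells recovered from the organ, has 5 libraries each of an untreated control, an IS and an IR group. The primary tumours comprise 4 untreated control and 5 IR libraries. What the IS and IR groups of the brain and tumour experiments received is not spelled out in their labels. A further culture experiment treated cells with a small RNA and holds 2 libraries whose title says scramble and 3 whose title says miR-145a-3p. Strain, age and genotype of the mice are not stated in the labels. The titles call the libraries biological replicates, but tie none to a named animal or culture, so the p values measure the spread between these libraries only, and some of that spread can be technical.

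In the miRNA experiment the library names contradict the titles: libraries titled as scramble have library names that begin with miR145, and those titled as miR-145a-3p have names that begin with ScRNA. Every direction in that experiment therefore rests on the titles, and the groups are called by title. Library totals ran from 8455412 to 12785398 counts in culture, 8790616 to 13272583 in brain, 17392887 to 21909370 in tumour and 24972592 to 32637552 in the miRNA experiment. The 7 epithelial markers (Epcam, Krt8, Krt18, Krt7, Krt19, Cdh1 and Cldn4) summed to 2695 to 3548 CPM (counts scaled to a common library total) in culture and 3229 to 6028 CPM in tumour, but to only 118 to 256 CPM in the brain libraries, low for libraries labelled as mammary carcinoma cells. The 7 macrophage and microglia markers summed to 413 to 3478 CPM in brain and to at most 14.1 CPM in culture. In bulk RNA, fewer cells of a type and less RNA per cell cannot be told apart.

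Mitochondrial DNA is a small circle that is transcribed from both strands into long precursors, which are cut at the transfer RNAs that lie between the other genes. The 13 messenger RNAs all encode subunits of the respiratory chain and of ATP synthase, and the 12S (mt-Rnr1) and 16S (mt-Rnr2) ribosomal RNAs build the ribosome that translates them. Most of these messenger RNAs receive a poly(A) tail inside the mitochondrion, which is why a kit that selects messenger RNA by its tail recovers them, and the tail is also needed to complete the stop codon of some of them.

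That last point is visible in the annotated 3' ends. In the GENCODE M21 annotation of GRCm38, 10 of the 13 messenger RNAs end in a complete stop codon and 3 end in a lone T, to which the tail would add the missing bases. The annotated end of mt-Nd1 (3707) lies past the start of mt-Ti (3706) on the same strand. That of mt-Nd2 (4951) likewise lies past the start of mt-Tw (4950). A cut at these transfer RNAs would leave both with shorter ends than annotated. The ends of the mature RNAs were not examined. The last 30 annotated bases of the 3 incomplete ends and of 2 annotated as complete are shown 5' to 3', because these tails are what the library kit captures. The stop codon or its remaining T is in capitals.
mt-Co3: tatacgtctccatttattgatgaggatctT
mt-Nd4: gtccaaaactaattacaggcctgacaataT
mt-Cytb: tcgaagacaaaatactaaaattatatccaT
mt-Co1: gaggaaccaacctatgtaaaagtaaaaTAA
mt-Nd1: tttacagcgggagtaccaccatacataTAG
mt-Co3 (MT, 8607 to 9390), mt-Nd4 (MT, 10167 to 11544) and mt-Cytb (MT, 14145 to 15288) are all on the annotated plus strand. mt-Nd6, at MT 13552 to 14070, is the only messenger RNA annotated on the other strand.

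Some genes of this compact genome share bases, so a read can fall in 2 genes. mt-Atp8 (MT, 7766 to 7969, a subunit of ATP synthase) and mt-Atp6 (MT, 7927 to 8607, the proton channel subunit of the same enzyme) overlap by 43 bases, which is 21.1% of mt-Atp8. The full mt-Atp8 sequence is shown with the shared bases in capitals, since a read there can belong to either gene.
mt-Atp8: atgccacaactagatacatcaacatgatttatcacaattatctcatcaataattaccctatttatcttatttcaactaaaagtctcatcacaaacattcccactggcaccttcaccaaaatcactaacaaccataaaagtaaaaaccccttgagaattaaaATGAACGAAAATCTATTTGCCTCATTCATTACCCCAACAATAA
mt-Nd4l and mt-Nd4, subunits of complex I, overlap by 7 bases. How shared reads were divided in the authors' counting was not stated in the labels.

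A larger sharing of reads was with the nuclear genome, which holds old copies of mitochondrial DNA. A search of all GENCODE M21 transcripts at 95% identity or more over 100 bases or more found 11 nuclear pseudogenes that match 9 of the 13 messenger RNAs, and none for mt-Nd1, mt-Nd6, mt-Cytb, mt-Atp8 or the ribosomal RNAs. A block of 7 on chromosome 1 (GRCm38, 24611535 to 24616197) matches mt-Nd4, mt-Nd4l, mt-Nd3, mt-Co3, mt-Atp6, mt-Co2 and part of mt-Co1 at 99.7% to 100% identity. The other 4 match at 95.2% to 97.6%. The first 60 bases of mt-Co2, a subunit of cytochrome c oxidase, and of mt-Nd3, a subunit of complex I, are shown beside their copies, with letters that differ from the mitochondrial gene in capitals, because identical stretches leave a read with no letter that tells the 2 origins apart.
mt-Co2: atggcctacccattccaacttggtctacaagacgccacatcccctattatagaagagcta
Gm28661: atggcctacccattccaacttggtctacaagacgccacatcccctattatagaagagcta
Gm13341: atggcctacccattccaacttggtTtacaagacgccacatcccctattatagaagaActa
mt-Nd3: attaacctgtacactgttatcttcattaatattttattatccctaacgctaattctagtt
Gm28438: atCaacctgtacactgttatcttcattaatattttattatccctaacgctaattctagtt
Counted from 1 at the start of each gene, Gm13341 differs by C25T and G57A in this window and Gm28438 by T3C, and the latter is 99.7% identical to mt-Nd3 over 345 bases. Gm28661 (chromosome 1, 24614885 to 24615565), identical to mt-Co2 over 681 of its 684 bases, was assigned 601 to 8351 counts per library in culture, 16095 to 48094 in brain, 25142 to 70045 in tumour and 44993 to 344841 in the miRNA experiment. Gm13341 (chromosome 2, 22587291 to 22587962), at 95.9% identity, was assigned at most 1 count in culture and brain, at most 55.9 in tumour and at most 104 in the miRNA experiment.

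The division between a mitochondrial gene and its copy varied from library to library. Of the summed counts of mt-Co2 and its copies, the copies held 95.3% to 98.6% in brain, 45.1% to 75.4% in culture, 41.0% to 67.7% in tumour and 69.2% to 75.1% in the miRNA experiment. For mt-Nd3 the copy held 0% to 4.89% in brain but 62.8% to 92.9% in culture, 76.5% to 94.5% in tumour and 74.0% to 84.1% in the miRNA experiment. For mt-Co3, another subunit of cytochrome c oxidase, the copy held 40.8% to 99.98% in culture, 50.9% to 84.9% in brain, 30.5% to 56.5% in tumour and 42.3% to 61.3% in the miRNA experiment. The gene alone varied widely in culture, at 250, 0.156 and 0.119 CPM in the untreated libraries, 0.223, 0.221 and 143 CPM with IS exosomes and 61.1, 55.2 and 388 CPM with IR exosomes. Summed with its copy, the same gene lay at 827, 531 and 600 CPM, at 1069, 901 and 888 CPM, and at 836, 204 and 655 CPM, so 8 of 9 libraries lay between 531 and 1069 CPM and IR library 2 lay below them. For mt-Co1, whose nearest copy covers only part of it, the copies held 8.19% to 32.2% in tumour and at most 6.28% in the other experiments. The single-gene values of mt-Co2, mt-Co3, mt-Atp6, mt-Nd3 and mt-Nd4l, and of mt-Co1 in tumour, are uncertain because of this division.

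**Figure D1:**
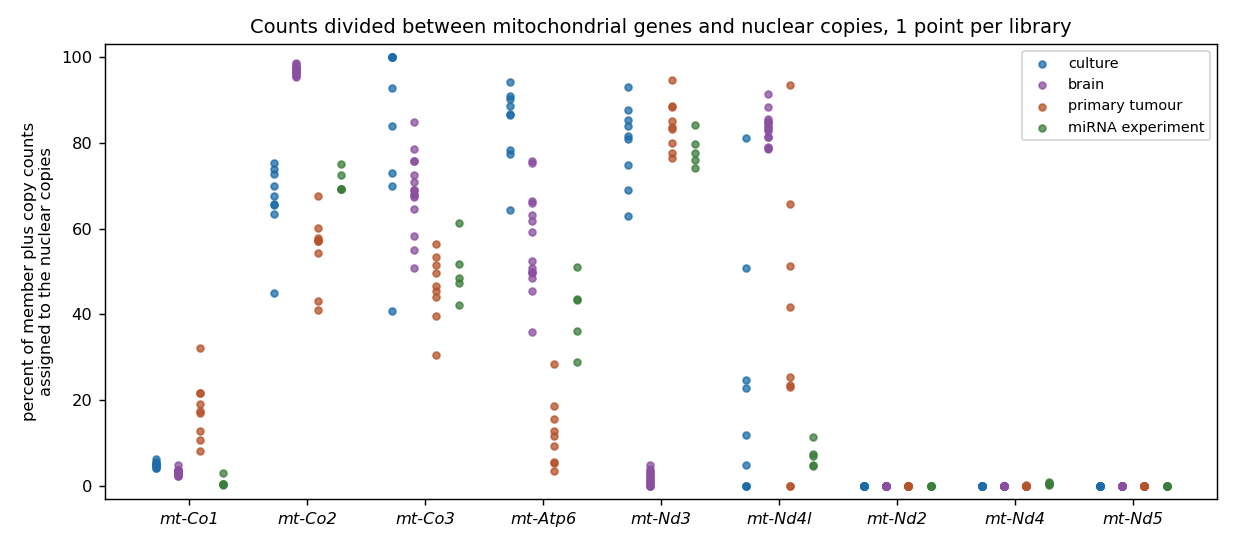
Percent of the counts of each mitochondrial messenger RNA plus its nuclear copies that was assigned to the copies (vertical axis), for the 9 genes with a copy, 1 point per library, coloured by experiment. The copies hold 95.3% to 98.6% of the mt-Co2 sum in brain and 40.8% to 99.98% of the mt-Co3 sum in culture, but at most 0.871% for mt-Nd2, mt-Nd4 and mt-Nd5.

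Levels were compared between genes per base of annotated coding length, as a percent of the length-scaled counts of the 13 messenger RNAs. With the copies added, mt-Atp6 (median 17.2%), mt-Co2 (14.5%) and mt-Co3 (13.8%) led in culture, and mt-Co1, the catalytic subunit of cytochrome c oxidase, followed at 12.8%. In brain mt-Co1 led with a median of 27.8% (24.9% to 37.1% over 15 libraries), ahead of mt-Co2 at 14.2%. In tumour mt-Co2 led at 21.9%, with mt-Atp6 at 17.3%, and in the miRNA experiment mt-Atp6 led at 18.8%, with mt-Co2 at 16.3%. In culture the ranges of these 4 genes overlapped with their neighbours in the order.

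At the bottom of the same order, mt-Atp8 had the lowest median per base in culture (0.345%), brain (0.132%) and the miRNA experiment (0.755%). In tumour the median of mt-Nd4l (0.383%) was lower than those of mt-Nd5 (0.752%) and mt-Atp8 (0.754%). Their ranges all overlapped, at 0.12% to 0.70%, 0.57% to 1.28% and 0.33% to 1.03%. This order is of counts assigned to genes and need not be one of separate RNA molecules. mt-Atp8, 204 bases long, shares 43 bases with mt-Atp6, and mt-Nd4l shares 7 with mt-Nd4. The part of gene length and of the division of shared reads in these low values was not tested. mt-Nd6, the complex I subunit on the opposite strand, held 1.30% in culture, 2.05% in brain, 1.58% in tumour and 1.14% in the miRNA experiment. mt-Nd5, also of complex I, held 2.49%, 4.66%, 0.752% and 2.42% in the same order. Without the copies the order changed: mt-Nd1 (21.5%) and mt-Co1 (20.8%) led in culture and mt-Co1 alone held 37.1% in brain. The 4 tables were made apart, the culture and brain tables with RSEM and the others with salmon by their titles, so these orders are set side by side without a test.

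**Figure D2:**
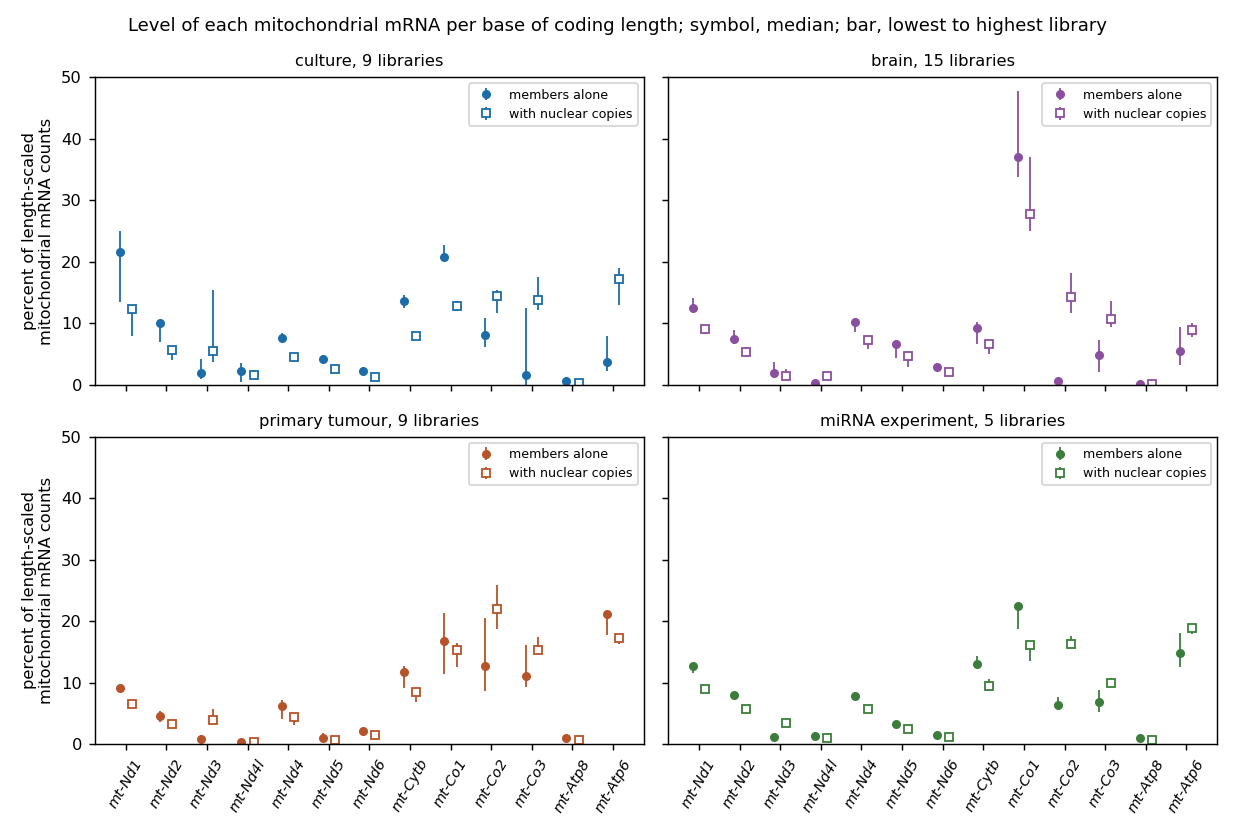
Percent of length-scaled mitochondrial messenger RNA counts (vertical axis) for each of the 13 genes, in 4 panels by experiment, as the median with a bar from the lowest to the highest library. Filled circles count the gene alone and open squares add its nuclear copies, which lifts mt-Co2 in brain from 0.654% to 14.2%.

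The 22 transfer RNAs were almost unseen in these libraries, which were made with a stranded mRNA kit. The part of the kit in this was not tested. In culture and brain all 22 were at 0 counts in all 24 libraries, which allows up to 0.355 CPM in the shallowest culture library and 0.341 CPM in the shallowest brain library. In tumour 5 of 22 had any count, and in the miRNA experiment 2 of 22. mt-Ts1, a serine transfer RNA at MT 6870 to 6938, was the only one kept by the filter on low counts, and only in tumour. It lies on the strand opposite to mt-Co1 and overlaps the end of that gene by 3 bases. In tumour it had 1.08, 3.11, 2.65 and 4.24 CPM in control libraries and 1.78, 1.94, 0.70, 1.38 and 3.44 CPM in IR libraries, so the groups overlapped. mt-Te, mt-Tq, mt-Ta and mt-Tw had at most 4 counts in any library.

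The share of all counts that were assigned to mitochondrial genes was 0.0961% to 0.651% in culture, 1.97% to 4.08% in brain, 1.20% to 2.70% in tumour and 1.71% to 12.5% in the miRNA experiment, in tables made apart. These shares leave out counts assigned to the nuclear copies and would be higher with them. The copy of mt-Co3 alone held 1679 to 13045 counts per culture library and 22425 to 147423 per miRNA library. Counting error is small at this depth: the share of 0.600% in the untreated library 1 had a 95% Wilson interval of 0.595% to 0.605%.

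**Figure D3:**
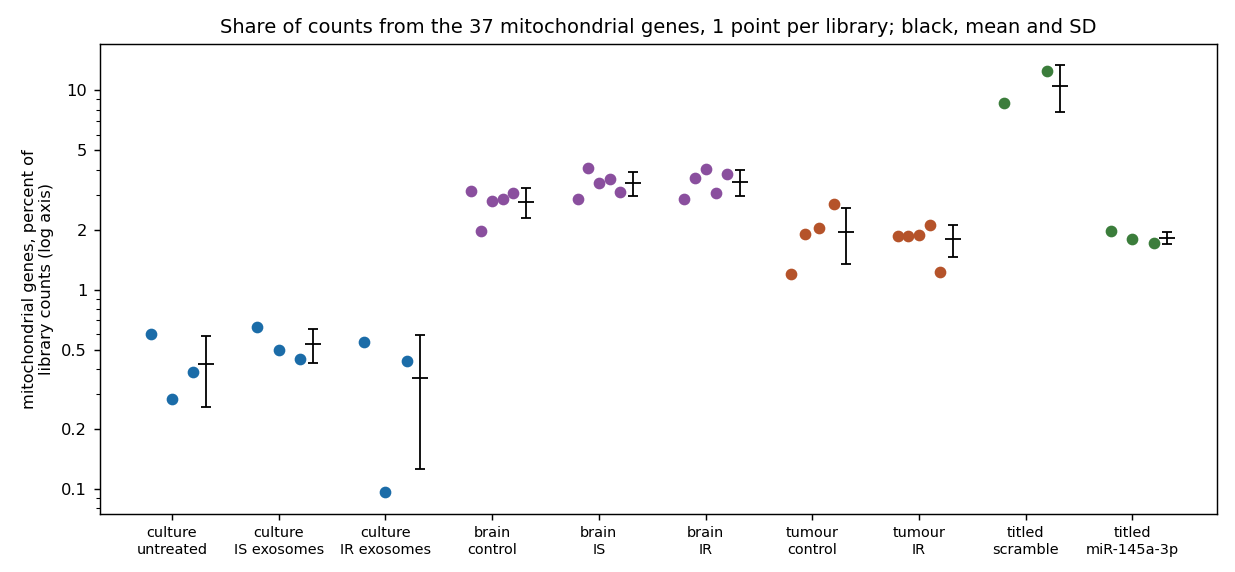
Percent of all counts of a library that were assigned to the 37 mitochondrial genes (vertical log axis), 1 point per library in the 10 groups, with the mean and SD in black. Counts assigned to nuclear copies are left out. One culture library with IR exosomes lies at 0.0961%, and the libraries titled as scramble (8.59% and 12.5%) lie above the 3 titled as miR-145a-3p (1.71% to 1.97%).

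In culture, the comparison with untreated cells asked what adipocyte exosomes change, and the comparison of both exosome kinds asked what insulin resistance of the adipocyte adds. The mitochondrial share was 0.600%, 0.281% and 0.384% in untreated cells, 0.651%, 0.496% and 0.450% with IS exosomes and 0.546%, 0.0961% and 0.438% with IR exosomes. The groups overlapped, and IR library 2 was the lowest of all 38. The log2 difference was -0.50 ± 0.85 (SE) for IR against untreated, 0.39 ± 0.36 for IS against untreated and -0.89 ± 0.80 for IR against IS. The exact two-sided permutation p was 0.8, 0.4 and 0.4 (n = 3 against 3, smallest possible 0.1), with adjusted p of 0.849, 0.64 and 0.64 over 8 comparisons. Without IR library 2 the difference from untreated cells turned to 0.28.

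Of the genes with few or no counts in copies, 3 abundant ones are given by library. mt-Co1 had 1716, 844 and 1157 CPM in untreated cells, 1957, 1427 and 1246 CPM with IS exosomes and 1531, 276 and 1221 CPM with IR exosomes. mt-Nd1, a core subunit of complex I, had 1019, 580 and 682 CPM, 1160, 918 and 815 CPM, and 1002, 112 and 699 CPM in the same order. mt-Cytb, the cytochrome b of complex III, had 808, 397 and 533 CPM, 934, 685 and 594 CPM, and 770, 126 and 562 CPM. In each of these genes IR library 2 was the lowest, and the remaining IR libraries lay within the range of the untreated ones.

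Of the 15 mitochondrial genes kept by the filter (13 messenger RNAs and 2 ribosomal RNAs), 0 passed an adjusted p of 0.05 with edgeR in any of the 3 culture comparisons. Of all 10888 genes tested, 13.6% passed for IR against untreated, 19.3% for IS against untreated and 6.27% for IR against IS. DESeq2 also called 0 members, where it called 10.9%, 15.2% and 5.12% of all genes. At an unadjusted p of 0.05 the mitochondrial counts were 0, 1 and 2. The median log2 fold change over the 15 genes was -0.34, 0.30 and -0.63, where the median of all genes was 0, and 3, 14 and 2 of the 15 lay above 0. With the nuclear copies added 0 were called again, where 13.7%, 19.4% and 6.39% of all features were, and the fold changes narrowed to between -0.46 and 0.18, 0.07 and 0.51, and -0.82 and -0.22. Without any filter on low counts 14, 11 and 15 of the 15 were called, against 8.04%, 11.3% and 4.79% of all genes. In that fit the prior degrees of freedom of edgeR, which set how far each gene's own spread gives way to the common one, were infinite, against 9.85 with the filter.

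Ratios of the ribosomal RNAs in culture were taken next. mt-Rnr2 relative to the 13 messenger RNAs was 0.0206 to 0.0218 in untreated cells, 0.0174 to 0.0182 with IS exosomes and 0.0190 to 0.0221 with IR exosomes. The IS libraries were all lower than both other groups, also with the copies added, with an exact permutation p of 0.1, the smallest possible for 3 against 3, and an adjusted p of 0.52 over all 78 ratio tests. mt-Rnr1 relative to mt-Rnr2 was 0.442 to 0.518, 0.473 to 0.572 and 0.444 to 0.542, with overlapping groups. In IR library 2 the ratio of the 2 ribosomal RNAs lay inside the range of the other libraries. Its ribosomal RNA part of mitochondrial counts, 3.29%, was above the highest of the others (3.06%), and its complex I part of messenger RNA counts, 38.6%, was below the lowest of the others (42.8%). That library was not low in the nuclear genes of oxidative phosphorylation on the list, which summed to 8266 CPM there and to 7893 to 8452 CPM over all culture libraries.

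In the brain libraries the control, IS and IR groups were compared to ask how the cells that grow out differ between the groups. The mitochondrial share was 3.13%, 1.97%, 2.79%, 2.86% and 3.07% in control, 2.84%, 4.08%, 3.44%, 3.60% and 3.09% in IS and 2.84%, 3.62%, 4.05%, 3.06% and 3.80% in IR libraries. Most IS and IR libraries were above most controls, but the groups overlapped. IR exceeded control by 0.33 ± 0.15 (SE) on the log2 scale (exact permutation p = 0.0794, adjusted p = 0.317) and IS exceeded control by 0.31 ± 0.15 (exact permutation p = 0.0556, adjusted p = 0.317), n = 5 against 5. IR and IS differed by 0.03 ± 0.13 (exact permutation p = 0.849, adjusted p = 0.849). The IS and IR groups were both compared with the same controls.

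Of the 15 genes, edgeR called 1 higher and 1 lower in IR against control, where 11.7% of the 12924 genes tested were called (6.45% higher and 5.27% lower), so the members' share lay near that of all genes. mt-Rnr1, the 12S ribosomal RNA (MT, 70 to 1024), had 502, 354, 439, 447 and 427 CPM in control, 575, 596, 549, 536 and 494 CPM in IS and 457, 573, 670, 513 and 624 CPM in IR libraries. The lowest IR library lay inside the control range and the other 4 above it. The log2 fold change of IR against control was 0.36 ± 0.10 (SE), with an adjusted p of 0.0339 in edgeR. The call was lost in 7 of the 10 fits that left out 1 library of either group, with an adjusted p of up to 0.0968 without IR library 3.

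mt-Nd3 was the gene called lower. It had 216, 192, 240, 235 and 217 CPM in control, 237, 172, 171, 159 and 134 CPM in IS and 137, 212, 119, 140 and 189 CPM in IR libraries. Among the IR libraries 4 lay below every control and 1 inside the control range. The log2 fold change was -0.49 ± 0.15 (SE) with an adjusted p of 0.0485 in edgeR, and the call was lost with the nuclear copy added, at a log2 fold change of -0.48 ± 0.16 (adjusted p = 0.0618, where 11.7% of all features were called), and in 8 of the 10 fits without 1 library, up to 0.130 without IR library 3.

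The other 13 genes did not pass. mt-Co1, the most abundant, had a lowest, median and highest level of 8313, 11612 and 13501 CPM in control, 12182, 15366 and 18782 CPM in IS and 12950, 16129 and 21863 CPM in IR libraries. Its log2 fold change in IR was 0.46 ± 0.16 (SE), with an adjusted p of 0.0694 in edgeR. DESeq2 called it higher beside mt-Rnr1 and called mt-Nd3 lower, 3 members in all, where it called 14.7% of all genes. In IS against control 0 of 15 passed in edgeR, where 6.46% of all genes did. At an unadjusted p of 0.05 there were 5, and DESeq2 called 1, mt-Rnr1, with 9.43% of all genes called. In IR against IS 0 of 15 passed in either tool, with 2 at an unadjusted p of 0.05, where edgeR called 0.0464% of all genes and DESeq2 4.67%.

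The ratio of the counts of the 2 ribosomal RNAs set the brain controls apart from both the IS and the IR group. Ribosomal RNA held 3.95% to 5.86% of mitochondrial counts in these libraries, made with a stranded mRNA kit. The ratios are therefore of the RNA that the kit captured, and the part of capture in them was not tested. mt-Rnr1 relative to mt-Rnr2 was 0.376 to 0.441 in control, 0.566 to 0.631 in IS and 0.507 to 0.575 in IR libraries. All 10 IS and IR libraries lay above all 5 controls. The mean log2 ratio was 0.53 ± 0.05 (SE) higher in IS and 0.37 ± 0.05 higher in IR than in control. The exact permutation p was 0.00794 in both comparisons, the smallest that 5 against 5 can give, and the adjusted p over 78 ratio tests was 0.124, so neither passed. IR was 0.16 ± 0.04 lower than IS (exact permutation p = 0.0159, adjusted p = 0.206), with overlapping groups. The search of annotated transcripts found no nuclear copy of these genes, and copies outside that annotation or below its settings were not searched for.

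Counts of the 16S ribosomal RNA were lower relative to those of the messenger RNAs in the IS and IR groups, without passing the correction. mt-Rnr2 (MT, 1094 to 2675) had 1146, 802, 1078, 1072 and 1134 CPM in control, 973, 1013, 885, 947 and 784 CPM in IS and 839, 1132, 1227, 992 and 1086 CPM in IR libraries, with overlap between all groups. Relative to the 13 messenger RNAs it was 0.0386 to 0.0432 in control, 0.0259 to 0.0362 in IS and 0.0300 to 0.0341 in IR libraries, so control lay above both other groups. The log2 difference from control was -0.50 ± 0.09 (SE) in IS and -0.33 ± 0.04 in IR. Both had an exact permutation p of 0.00794 and an adjusted p of 0.124. With the copies added to the messenger RNAs the groups still did not overlap, at 0.0306 to 0.0341, 0.0210 to 0.0281 and 0.0249 to 0.0283. mt-Rnr1 relative to the 13 messenger RNAs overlapped between the groups, at 0.0146 to 0.0191 in control, 0.0152 to 0.0214 in IS and 0.0166 to 0.0176 in IR libraries, and was not tested.

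**Figure D4:**
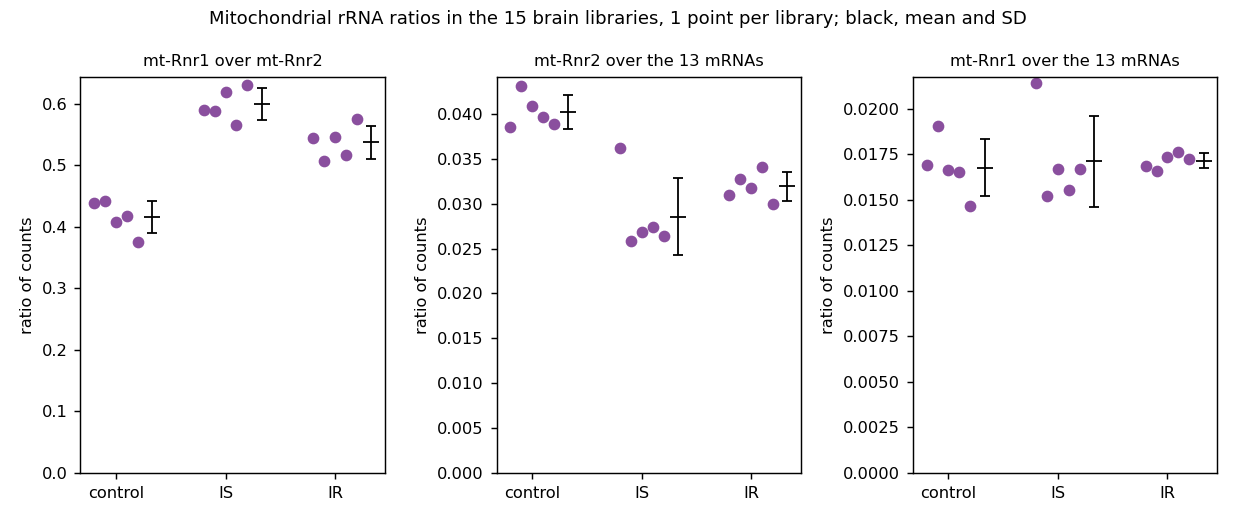
Ratio of counts (vertical axes from 0) in the 15 brain libraries, 1 point per library with mean and SD in black. The mt-Rnr1 to mt-Rnr2 ratio is 0.376 to 0.441 in control and 0.507 to 0.631 in the IS and IR libraries. mt-Rnr2 relative to the messenger RNAs is highest in control (0.0386 to 0.0432), and mt-Rnr1 relative to the messenger RNAs overlaps between the groups (0.0146 to 0.0214 over all 15).

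RNAs listed as having no stable poly(A) tail, histone transcripts among them, summed to 654 to 755 CPM in control, 546 to 660 CPM in IS and 491 to 562 CPM in IR libraries. Whether each of them lacked a tail in these libraries was not examined. Of the 20 tested genes of that list 6 were lower and 0 higher in IR against control, and 4 lower and 0 higher in IS against control, where 5.27% of all genes were called lower in IR and 6.46% in either direction in IS. H2bc4, a histone gene, fell from a mean of 189 to one of 127 CPM in IR (n = 5 each; log2 fold change -0.58 ± 0.11 SE, adjusted p = 0.00292 in edgeR). The endothelial markers also moved, with a sum of 78.4 to 110 CPM in control, 98.5 to 564 CPM in IS and 322 to 696 CPM in IR libraries, and Pecam1 rose in IR with a log2 fold change of 3.09 ± 0.40 (adjusted p = 4.09e-04 in edgeR). All 5 endothelial markers were called higher in IR and 3 of them in IS. Of 5 tested macrophage and microglia markers 3 were lower in IR than in control and 0 in IS. The part of these in the ribosomal RNA ratios was not tested.

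Among the messenger RNAs of the brain libraries, mt-Nd1 relative to mt-Nd2, neighbouring genes for complex I subunits, was 1.41 to 1.49 in control, 1.54 to 1.62 in IS and 1.46 to 1.68 in IR libraries. IS lay above control without overlap (log2 difference 0.12 ± 0.02, exact permutation p = 0.00794, adjusted p = 0.124). With copies added, mt-Nd3 relative to mt-Co3 was 0.0703 to 0.0856 in control, 0.0499 to 0.0727 in IS and 0.0419 to 0.0655 in IR libraries. That ratio separated IR from control (exact permutation p = 0.00794, adjusted p = 0.107 over the 81 tests with copies) but not IS from control. The 7 complex I messenger RNAs relative to the 3 of complex IV were 0.807 to 0.853 in control, 0.728 to 0.819 in IS and 0.556 to 0.819 in IR libraries (exact permutation p = 0.0238 and adjusted p = 0.206 in both comparisons with control). With the copies added they were 0.577 to 0.617, 0.482 to 0.592 and 0.448 to 0.586. IR library 3 was the lowest on either count and, without the copies, had 59.1% of its mitochondrial messenger RNA counts in complex IV genes and 32.9% in complex I genes.

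In the primary tumours the IR group was compared with control to ask how tumours of the IR group differ. The mitochondrial share was 1.20%, 1.89%, 2.03% and 2.70% in control and 1.86%, 1.85%, 1.88%, 2.12% and 1.22% in IR libraries. The IR range lay within the control range, with a log2 difference of -0.10 ± 0.28 (SE; exact permutation p = 0.746, adjusted p = 0.849, n = 4 and 5). The difference turned to 0.08 without control library 4 and to 0.03 without IR library 5. IR libraries 4 and 5 also held skeletal muscle transcripts, whose 6 markers summed to 10721 and 1482 CPM against at most 222 CPM in the other tumour libraries. Without both of them 0 of the 15 members then tested were called.

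edgeR and DESeq2 called 0 of the 16 tested members in tumour, with 0 at an unadjusted p of 0.05. Of the 12962 genes tested, edgeR called 0% and DESeq2 0.957%. mt-Co1 had 3354, 4947, 5294 and 6362 CPM in control and 5711, 5356, 5923, 5302 and 2339 CPM in IR libraries. With its copies it had 4152, 5994, 6380 and 8127 CPM in control and 6403, 6143, 6451, 6773 and 3451 CPM in IR libraries. mt-Atp6 had 1738, 2796, 2863 and 4095 CPM in control and 2464, 2633, 2175, 3201 and 1912 CPM in IR libraries, and with its copy 1837 to 4520 and 1983 to 3392 CPM. The groups overlapped for both genes on either count. mt-Rnr1 exceeded mt-Rnr2 here, with a ratio of 1.21 to 1.49 in control and 1.12 to 1.34 in IR libraries, which overlapped. In every culture, brain and miRNA library the same ratio lay below 1, between 0.207 and 0.631, and the tables were made apart, so this was not tested.

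In the miRNA experiment all mitochondrial messenger and ribosomal RNAs were lower in the libraries titled miR-145a-3p. The mitochondrial share was 8.59% and 12.5% in the libraries titled scramble and 1.97%, 1.78% and 1.71% in those titled miR-145a-3p, a 5.72-fold difference between the means of the log2 shares. The groups did not overlap. The exact permutation p was 0.2, the smallest that 2 against 3 can give, with an adjusted p of 0.533.

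In edgeR 15 of the 15 tested members were called lower, where 28.7% of the 10751 genes tested were called lower and 56.7% in either direction. All 15 had groups that did not overlap, lower in the libraries titled miR-145a-3p, as did 36.9% of all genes. DESeq2 called the same count of 15 lower and 55.3% of all genes. The log2 fold changes ran from -2.30 for mt-Rnr2 to -3.12 for mt-Co3, with a median of -2.70 against -0.01 for all genes, and the adjusted p from 7.84e-06 for mt-Atp6 to 0.00257 for mt-Atp8. With the nuclear copies added 15 were called lower, between -2.30 and -2.86, where 28.7% of all features were. By complex, complex I ranged from -2.64 (mt-Nd5) to -2.97 (mt-Nd3), complex III was -2.85 (mt-Cytb), complex IV ranged from -2.45 (mt-Co1) to -3.12 (mt-Co3) and ATP synthase from -2.41 (mt-Atp8) to -2.64 (mt-Atp6). With copies added mt-Nd3 was at -2.80, mt-Co3 at -2.86, mt-Co1 at -2.47 and mt-Atp6 at -2.68. Without library 2 of those titled scramble, which leaves 1 library in that group and assumes that it varies like the other group, mt-Atp8 moved to -1.18, mt-Nd4l to -1.85 and mt-Rnr1 to -2.01, and without library 1 mt-Atp8 moved to -3.07.

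mt-Cytb showed the pattern in its libraries: 12643 and 19234 CPM in those titled scramble and 2630, 2411 and 2257 CPM in those titled miR-145a-3p. mt-Nd6, from the other strand, had 602 and 1096 CPM against 151, 123 and 127 CPM, a log2 fold change of -2.81 ± 0.24 (SE; adjusted p = 1.28e-04 in edgeR). mt-Rnr1 had 246 and 477 CPM against 71.3, 58.7 and 62.9 CPM. In each of these 3 genes both libraries titled scramble lay above all 3 of the others.

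**Figure D5:**
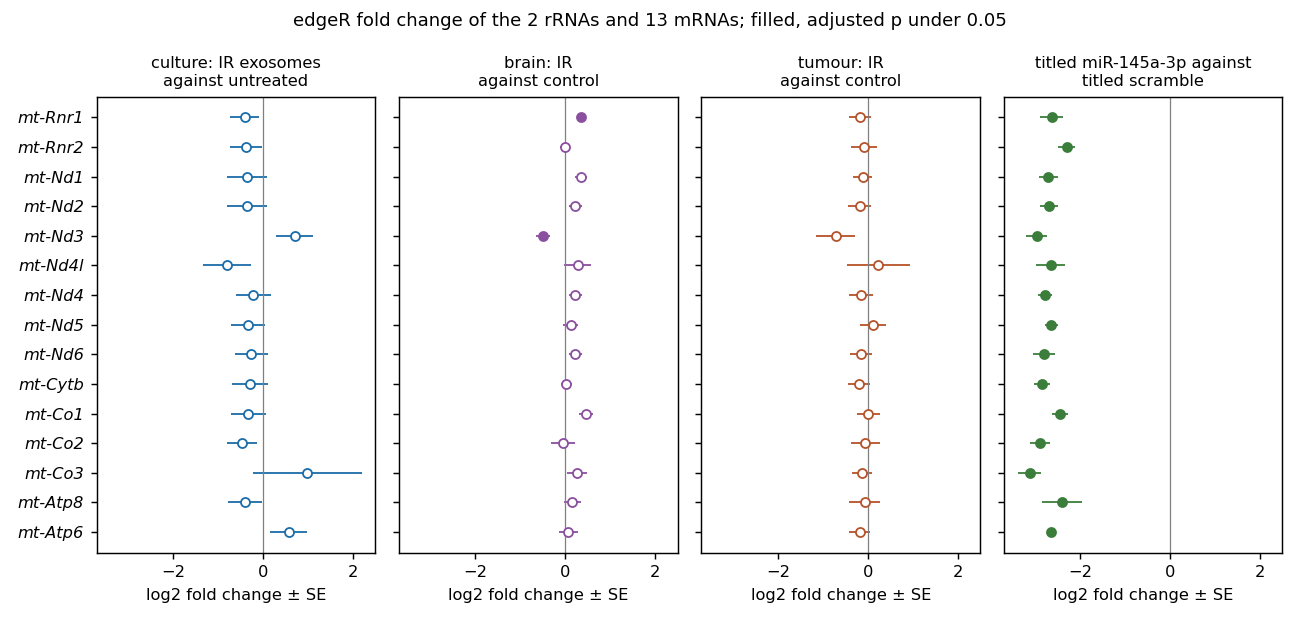
edgeR log2 fold change with its SE (horizontal axis) of the 2 ribosomal and 13 messenger RNAs in 4 comparisons, with filled points at an adjusted p under 0.05. All 15 points are filled and lie from -3.12 to -2.30 in the comparison of libraries titled miR-145a-3p with those titled scramble, and 2 are filled in brain.

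Ratios between members were compared in the same libraries, and 0 passed the correction. mt-Rnr2 relative to the 13 messenger RNAs was 0.0126 and 0.0132 in the libraries titled scramble and 0.0162 to 0.0172 in the others, and mt-Rnr1 relative to mt-Rnr2 was 0.231 to 0.294 against 0.207 to 0.219. The 7 complex I messenger RNAs relative to the 3 of complex IV were 0.957 and 0.974 against 0.855 to 0.891. mt-Co2 relative to mt-Co1 was 0.147 and 0.182 against 0.112 to 0.135. Each of these ratios separated the groups, with an exact permutation p of 0.2, the smallest possible here, and an adjusted p of 0.619. The groups overlapped in the ratios of mt-Nd6 to the other messenger RNAs, mt-Atp8 to mt-Atp6 and mt-Nd4l to mt-Nd4. They also overlapped in those of mt-Nd3 to mt-Co3, mt-Nd5 to mt-Cytb and mt-Nd1 to mt-Nd2.

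Other listed RNAs were also called in the same libraries. The nuclear-retained RNAs Malat1, Neat1 and Kcnq1ot1 were all called lower in the libraries titled miR-145a-3p, 3 of 3 tested, where 28.7% of all genes were called lower. With Meg3 at 0 the list summed to 1095 and 984 CPM against 364 to 406 CPM. Malat1 had 552 ± 110 CPM (SD, n = 2) against 205 ± 6.82 CPM (SD, n = 3; log2 fold change -1.43 ± 0.11, adjusted p = 9.59e-05 in edgeR). Of 38 tested nuclear genes of oxidative phosphorylation 7 were called higher and 16 lower, a share near the 56.7% of all genes, with a median log2 fold change of -0.11, and the summed level of the list was 7134 and 7500 CPM against 8108 to 8452 CPM. Those sums are scaled to library totals. Mitochondrial counts held 8.59% and 12.5% of the totals in the libraries titled scramble and 1.71% to 1.97% in the others. The part of this in the gap was not tested. Atp5f1a and Atp5f1b, the catalytic core of ATP synthase, were higher (log2 fold change 0.82 ± 0.08 and 0.65 ± 0.07, adjusted p = 1.94e-04 and 3.09e-04 in edgeR), Sdha, a complex II subunit, was higher by 0.65 ± 0.09 (adjusted p = 6.48e-04), and Cycs, cytochrome c, was lower by -0.45 ± 0.06 (adjusted p = 8.04e-04). The part of the nuclear-retained RNAs in the mitochondrial difference was not tested.

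The nuclear genes that run mitochondrial gene expression were taken from lists of regulators, RNA processing factors and DNA maintenance factors. Of the regulators of mitochondrial transcription, 1 was higher and 1 lower of 14 tested in IR against untreated culture, 1 and 2 in IS against untreated, 2 and 0 of 15 in brain IR against control, none in brain IS against control or in tumour, and 4 and 1 of 13 in the miRNA experiment. The shares of all genes called in either direction were 13.6% and 19.3% in these culture comparisons, 11.7% in brain IR, 6.46% in brain IS, 0% in tumour and 56.7% in the miRNA experiment, and these hold for the counts of the next lists too. Esrra, a nuclear receptor that drives mitochondrial genes, was higher in culture with IR exosomes (50.2 ± 2.12 against 39.2 ± 1.10 CPM, SD, n = 3; log2 fold change 0.36 ± 0.06, adjusted p = 2.97e-04 in edgeR) and with IS exosomes (55.6 ± 0.457 CPM; 0.51 ± 0.06, adjusted p = 7.63e-06). It was also higher in brain IR than in control by 0.41 ± 0.12 (adjusted p = 0.0357). Ppargc1a, a coactivator of mitochondrial biogenesis, was higher in brain IR, at 27.2 ± 15.1 against 10.7 ± 1.82 CPM (SD, n = 5; log2 fold change 1.35 ± 0.27, adjusted p = 0.00450 in edgeR). In the miRNA experiment Gabpa (0.56 ± 0.08) and Nrf1 (0.45 ± 0.07), activators of nuclear genes for mitochondrial proteins, and Tfb2m (0.31 ± 0.07), a mitochondrial transcription factor, were higher in the libraries titled miR-145a-3p, and Mterf4 was lower by -0.48 ± 0.12.

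Of the genes for processing and decay of mitochondrial RNA, 3 of 25 were higher and 0 lower with IS exosomes against untreated, 0 higher and 1 lower with IR exosomes, 1 of 26 higher in brain IS and 0 called in brain IR and tumour, and 3 higher and 8 lower of 25 in the miRNA experiment, where 56.7% of all genes were called. Lrpprc, which protects mitochondrial messenger RNA from decay, was higher with IS exosomes (0.13 ± 0.04, adjusted p = 0.0461 in edgeR) and in the libraries titled miR-145a-3p (0.37 ± 0.05, adjusted p = 8.62e-04). Elac2, which cuts the 3' end of transfer RNAs from the precursor, was lower with IR than with IS exosomes (-0.32 ± 0.06, adjusted p = 0.00352). Fastk, Rexo2 and Mettl17 were lower in the libraries titled miR-145a-3p by -0.58 ± 0.08, -0.44 ± 0.06 and -0.60 ± 0.08. Of 11 genes that maintain mitochondrial DNA, Polg, its polymerase, was higher in brain IR (0.26 ± 0.07, adjusted p = 0.0272) and brain IS (0.32 ± 0.07, adjusted p = 0.0142) than in control, Twnk, the helicase, was lower with IS exosomes (-0.25 ± 0.05, adjusted p = 0.00296), and 1 was higher and 6 lower in the miRNA experiment, a share near the 56.7% of all genes.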

How the data were processed

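The 4 tables hold expected counts per gene, deposited by the authors, made with RSEM for culture and brain and with salmon for tumour and miRNA libraries per the file names that the labels give. Per the labels' protocols, libraries were made with a stranded mRNA kit. Reads were paired-end and went through the nf-core RNA-seq pipeline per the labels' series text; the build of each table was not given in the sources used here. Totals ran from 8455412 to 32637552 counts per library, and intervals and limits cover counting error only. 3 columns that match no sample were not used. The IR columns of the culture and brain tables could be matched to their group but not to single numbered samples, so their digits name columns only. The counts were rounded to whole numbers, and genes with 3 CPM in 3 libraries were tested with edgeR 4.0.16 (quasi-likelihood, TMM scaling, Benjamini-Hochberg over all genes, all groups of an experiment in 1 fit), with DESeq2 1.42.0 as the alternative, in R 4.3.3. Shares and ratios were tested on the log2 scale with exact two-sided permutation tests, adjusted over 8 comparisons and over 78 ratio tests (81 with copies added). Scripts were tested on simulated data. Nuclear copies were found with BLAST 2.17.0 in GENCODE M21 transcripts (GRCm38), which also gave all sequences. Sums with nuclear copies and the fit without 2 tumour libraries were chosen after seeing the data. All messenger and ribosomal RNAs were named, transfer RNAs where the filter kept them, and of each other list up to 4 called genes with the smallest adjusted p. The members and lists were chosen with earlier results of these data known. Same-numbered tumour libraries deviated together by the rule used (correlation 0.108 to 0.759 over genes in the 4 pairs of equal title number, each over 0.1). Pairs of unequal number ranged from -0.416 to 0.293, and control replicate 4 has a library name numbered 5. In tumour the replicate block called 0 members too.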

Additional observations from a re-analysis of the deposited data

Results flagged for a closer look

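In 3 of 60 checks of a group's values a library stood apart, where about 1 in 20 was taken as the rate by chance. The checks share counts and are not independent, so the number of marks was not tested against that rate. The library apart was each time IS library 1 of the brain assay, against the other 4 libraries of its group. Ribosomal RNA made up 5.45% of its mitochondrial counts, against 3.95% to 4.17% in the others. mt-Rnr2 relative to the 13 messenger RNAs was 0.0362, against 0.0259 to 0.0275. mt-Nd5, of complex I, relative to mt-Cytb was 0.736, against 1.08 to 1.15. Its ratio of mt-Rnr1 to mt-Rnr2 stayed inside the range of its group.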

How the results depend on the processing

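Without the filter on low counts, edgeR called 14 members for IR against untreated culture, 11 for IS against untreated and 15 for IR against IS, against 0 each with it. The replicate block called 8 members higher for IS against untreated culture, in a fit of 6 libraries that left out the IR group, so block and samples changed together. Same-numbered libraries there had correlations of -0.195 to 0.0696 and share only a number. In the brain IS, tumour and miRNA comparisons the block called 0, 0 and 15, as without it. The shares of all genes called with the block are not given here, so its counts are not read as results about the members. No paired analysis was possible for the comparisons with IR in culture and brain because those columns carry no matched replicate number. In brain, adding the nuclear copies left 1 call for IR against control, and DESeq2 made 1 for IS against control. Leaving out 1 library at a time gave 0 to 2 calls for IR against untreated culture, 0 to 2 for IR against IS in culture and 0 to 2 for brain IR against control. The calls in culture were mt-Co3 and mt-Nd3 without untreated library 1, mt-Nd4l without IR library 1, mt-Nd3 without IR library 2, and, against IS, mt-Co2 and mt-Nd4l without IR library 1. In brain 0 remained without control libraries 2, 3, 4 or 5 or IR library 3. For fits without 1 library the share of all genes called is not given here either. Their counts show only how far the calls depend on single libraries. Leaving out 1 library gave 0 in the other comparisons and 15 in the miRNA experiment. The log2 difference in mitochondrial share of brain IR against IS turned to -0.0010 with nuclear copies added, and ranged from -0.038 to 0.095 without 1 library. That of IR against untreated culture ranged from -0.97 to 0.28, positive without IR library 2, and that of tumour from -0.31 to 0.076, positive without control library 4 or IR library 5. The causes were not tested. Of the ratio tests 0 passed under any alternative run. For the transfer RNAs at 0 the depth allows up to 0.355 CPM in culture.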
